A study of Mus musculus with 16 samples.

Results

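The glucocorticoid receptor gene Nr3c1 and 7 genes tied to glucocorticoid action in muscle, Hsd11b1, Fkbp5, Tsc22d3, Zbtb16, Klf15, Klf9 and Sgk1, were followed in mouse quadriceps muscle. They were taken by gene symbol from the table of raw read counts, and 8 of the 8 symbols were among its 13320 genes. RNA came from the quadriceps of male CD2F1 mice, 8 weeks old when injected, in 4 groups of 4 libraries. In the splenic C26 group, C26 cells, a mouse colon carcinoma line used as a model of cancer wasting, were placed in the spleen to imitate spread to the liver. Sham animals underwent the operation with saline in place of cells. For subcutaneous C26 the same line was injected under the skin, and the remaining group is labelled only as control, with no treatment named. How many weeks passed before tissue was taken is not stated. The titles of the splenic C26 and sham samples carry one prefix and those of the subcutaneous C26 and control samples another, so that the route of injection and whatever the prefix marks cannot be told apart. The labels do not tie each library to an animal of its own. The p-values therefore cover only how far libraries of a group differ, and that spread may be technical.

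Glucocorticoids are steroid hormones of the adrenal cortex that enter cells and bind the receptor encoded by Nr3c1, which then moves to the nucleus and binds DNA. In skeletal muscle the hormone is known to lower protein synthesis and raise protein breakdown, and the enzyme encoded by Hsd11b1 regenerates active hormone inside tissues. Fkbp5, Tsc22d3, Zbtb16, Klf15, Klf9 and Sgk1 are textbook targets that the activated receptor induces in many cell types.

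Promoter sequences are shown because a receptor element close to a start site is one of the ways in which these targets are recognised. RefSeq promoter windows of 300 bases on GRCm38.p6 were used, each running from 250 bases before to 50 bases after an annotated start. They covered 6 of the 8 genes and numbered 13 in all. They were searched on both strands for the receptor half-site AGAACA, for the whole element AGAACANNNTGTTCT, which contains 2 half-sites, and for the Klf box CACCC, the core of the sites bound by Klf factors. Printed are the Sgk1 start with the whole element, the next Sgk1 start downstream for comparison, the Tsc22d3 start with a half-site, and the windows of Klf15, Klf9 and Fkbp5, which rose and have 1 window each. Capitals mark every match, read along the strand of the gene.
Sgk1, start with the whole element (chr10:21993640-21993939, plus strand): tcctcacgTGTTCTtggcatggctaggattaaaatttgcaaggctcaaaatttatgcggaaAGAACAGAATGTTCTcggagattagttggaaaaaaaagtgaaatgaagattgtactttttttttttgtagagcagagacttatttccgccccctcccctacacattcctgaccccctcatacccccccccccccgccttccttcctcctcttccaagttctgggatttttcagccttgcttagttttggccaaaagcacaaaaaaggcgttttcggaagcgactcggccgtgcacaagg
Sgk1, next start downstream (chr10:21994416-21994715, plus strand): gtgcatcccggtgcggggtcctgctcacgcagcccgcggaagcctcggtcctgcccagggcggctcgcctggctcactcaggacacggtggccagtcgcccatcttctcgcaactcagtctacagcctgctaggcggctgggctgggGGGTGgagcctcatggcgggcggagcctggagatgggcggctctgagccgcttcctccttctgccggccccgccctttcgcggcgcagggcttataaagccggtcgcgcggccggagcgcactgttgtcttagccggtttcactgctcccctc
Tsc22d3, start with a half-site (chrX:140600473-140600772, minus strand): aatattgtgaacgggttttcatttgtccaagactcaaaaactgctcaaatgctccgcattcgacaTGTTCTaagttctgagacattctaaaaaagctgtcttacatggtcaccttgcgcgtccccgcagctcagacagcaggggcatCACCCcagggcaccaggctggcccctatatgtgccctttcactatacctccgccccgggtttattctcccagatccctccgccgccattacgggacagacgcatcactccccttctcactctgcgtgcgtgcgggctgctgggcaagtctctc
Klf15 (chr6:90462326-90462625, plus strand): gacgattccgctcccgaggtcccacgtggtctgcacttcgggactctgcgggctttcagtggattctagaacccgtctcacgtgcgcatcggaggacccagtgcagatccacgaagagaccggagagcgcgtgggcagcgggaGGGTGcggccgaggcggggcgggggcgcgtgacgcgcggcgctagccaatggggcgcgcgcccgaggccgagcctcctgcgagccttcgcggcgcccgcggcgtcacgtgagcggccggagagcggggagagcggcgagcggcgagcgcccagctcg
Klf9 (chr19:23140976-23141275, plus strand): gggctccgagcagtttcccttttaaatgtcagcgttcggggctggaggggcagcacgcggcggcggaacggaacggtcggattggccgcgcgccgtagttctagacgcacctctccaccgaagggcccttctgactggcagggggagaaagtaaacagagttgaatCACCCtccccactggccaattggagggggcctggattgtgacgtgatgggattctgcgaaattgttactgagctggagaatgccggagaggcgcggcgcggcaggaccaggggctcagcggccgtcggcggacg
Fkbp5 (chr17:28486100-28486399, minus strand): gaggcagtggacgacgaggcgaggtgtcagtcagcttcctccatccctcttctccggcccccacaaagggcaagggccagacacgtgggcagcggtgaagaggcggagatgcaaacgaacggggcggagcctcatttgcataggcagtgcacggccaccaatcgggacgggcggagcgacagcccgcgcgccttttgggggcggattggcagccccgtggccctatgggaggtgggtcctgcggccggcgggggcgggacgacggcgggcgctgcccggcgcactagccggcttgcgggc

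The whole element was found in 1 of the 13 windows, that of an internal Sgk1 start, where it began 189 bases before the start. It occurred in 3 of 32841 mouse promoter windows of this length, or 0.00913%, and the other 2 belonged to Acnat2 and Gm35041, which are not in the count table. A half-site was present in 4 of the 13 windows, 3 of Sgk1 and 1 of Tsc22d3, against 19.0% of all windows. The Klf box was present in 6 of 13 windows, with 1 match each for Hsd11b1, Klf15 and Klf9, against 57.5% of all windows. The Fkbp5 window held none of these letters. These matches are a description of the sequence near the starts and not of receptor binding, and they cover only these windows. Windows on chromosome 18, where Nr3c1 lies, were left out for the 8 genes, so Nr3c1 was not searched. The shares of all windows do include that chromosome. No window was held for Zbtb16.

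Total counts were 25.9 to 34.9 M per library, and all 12 muscle fibre markers were measured in every library, with summed levels of 128819 to 324035 CPM. CPM are read counts scaled to a common library size of 1 M reads after TMM normalization, which corrects for differences in composition. A principal component analysis used the genes with a mean of at least 1 CPM. On its leading component, which held 68.8% of the variance, 6 tumour libraries had scores of 59.6 to 87.6 and the 8 tumour-free libraries had scores of -55.9 to -50.8. The other 2 tumour libraries stood apart, splenic C26 replicate 1 at -4.93 and subcutaneous C26 replicate 3 at 3.17, so the calls of the 8 genes and the counts of each gene list are also given without them where these change. A gene was called changed at an adjusted p under 0.05 in edgeR's quasi-likelihood test over all 13320 genes, which called 52% of them in splenic C26 against sham and 50% in subcutaneous C26 against control. Over all genes the log2 fold change had a median of -0.03 for splenic C26 against sham and -0.02 for subcutaneous C26 against control.

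In both tumour comparisons 5 of the 8 genes rose, Fkbp5, Zbtb16, Klf15, Tsc22d3 and Klf9, and 0 fell, against backgrounds of 28.1% of genes higher and 23.9% lower in splenic C26, and 27% higher and 23.1% lower in subcutaneous C26. The receptor gene itself, Hsd11b1 and Sgk1 did not pass the test in either comparison. Where tumour and tumour-free libraries are described as not overlapping, the share of all genes that also do not overlap was not counted. Such separation is therefore not shown to be particular to these genes. The median log2 fold change of the 8 genes was 1.22 for splenic C26 against sham and 1.01 for subcutaneous C26 against control. Between the tumour effects, the background of calls was 0% and 0 of the 8 genes were called, and the same held for splenic C26 against subcutaneous C26. Without the 2 libraries that stood apart, 1.93% of all genes were called in the difference between the tumour effects and again 0 of the 8.

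**Figure D1:**
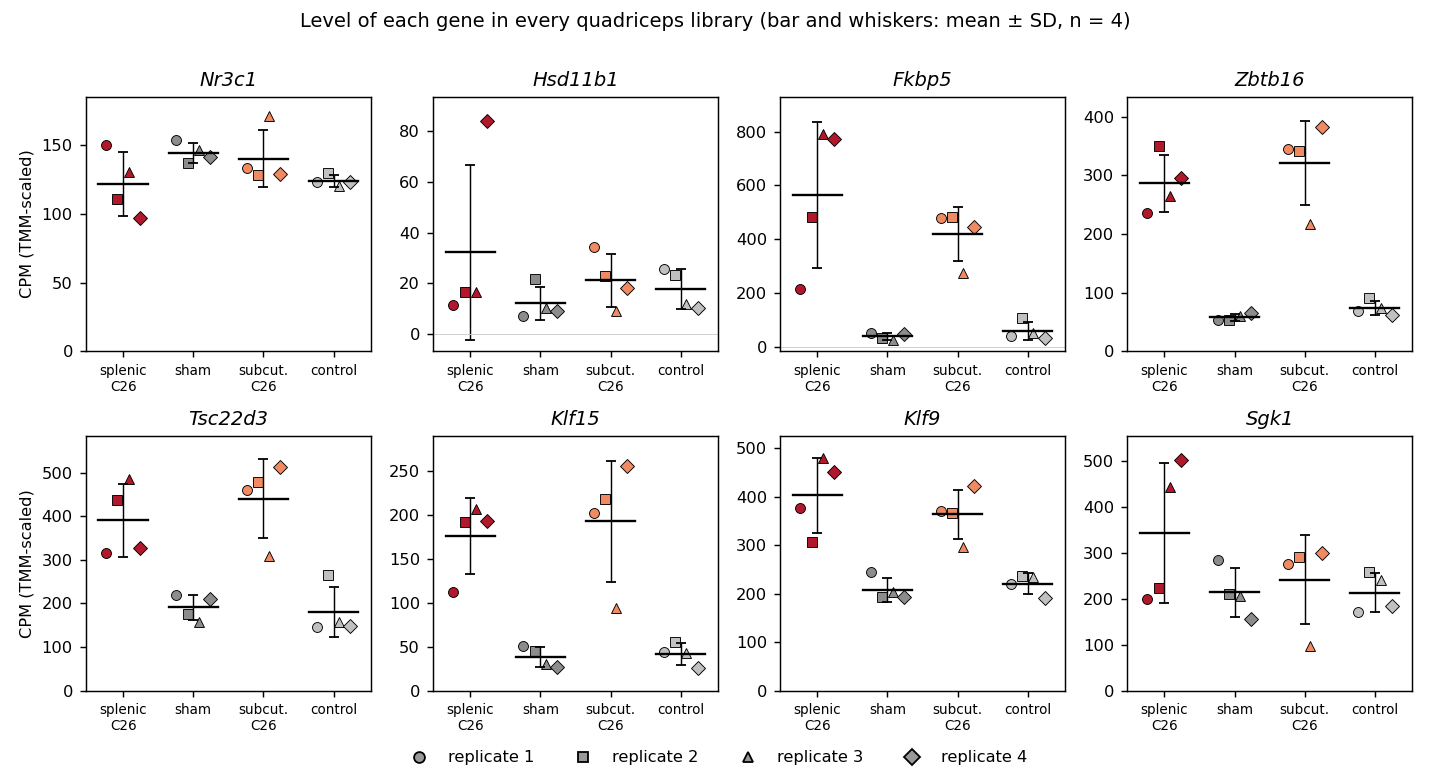
Level of each gene (vertical axis, CPM, linear scale from 0 or just below) in every library of the 4 groups (horizontal axis); symbols mark replicates, and the horizontal line with whiskers is the mean ± SD of 4 libraries. Tumour libraries lie above every library of their tumour-free group for Fkbp5, Zbtb16, Tsc22d3, Klf15 and Klf9, and overlap with it for Nr3c1, Hsd11b1 and Sgk1. The share of all genes that separate in this way was not counted.

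Nr3c1, the hormone-binding receptor (mm10, GENCODE M21, chr18:39410545-39519421, minus strand), stayed between 96.7 and 171 CPM in all 16 libraries. Its level was 150.1, 111, 131 and 96.7 CPM in splenic C26 replicates 1 to 4, against 154, 137, 146 and 141 CPM in the sham libraries. Splenic C26 replicates 2, 3 and 4 lay below every sham library, and replicate 1 lay among them. Subcutaneous C26 libraries held 133, 128, 171 and 129 CPM, against 123, 129.7, 120.0 and 123 CPM in control libraries. Replicate 3 was high, replicate 1 lay just above the control range and replicates 2 and 4 lay within it. The log2 fold change was -0.24 ± 0.14 (SE) for splenic C26 against sham (adjusted p = 0.141) and 0.18 ± 0.14 for subcutaneous C26 against control (adjusted p = 0.284).

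The call in the splenic group depended on which libraries were included. Without splenic C26 replicate 1, Nr3c1 fell by 0.35 on the log2 scale (adjusted p = 0.0185), in a fit that called 61.6% of all genes. With both libraries that stood apart removed, it fell by 0.36 in splenic C26 against sham (adjusted p = 0.00466) and differed by 0.07 in subcutaneous C26 against control (adjusted p = 0.548). The difference between the tumour effects on Nr3c1 was -0.42, with a 95% interval of -0.83 to -0.01 and an adjusted p of 0.768. Mean levels were 122 ± 23.3 CPM in splenic C26 and 145 ± 7.25 CPM in sham, and 140.4 ± 20.7 CPM in subcutaneous C26 and 124 ± 4.08 CPM in control (SD, n = 4 each), so that sham had the highest mean and splenic C26 the lowest. Only sham and control, the tumour-free groups, had ranges that did not overlap, and that contrast (log2 difference 0.22) did not pass the test, with an adjusted p of 0.99996 and 0.00751% of genes called.

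Hsd11b1, the reductase that turns inactive 11-keto steroid into active glucocorticoid (chr1:193221634-193264075, minus strand), varied widely within groups and did not pass in either comparison. Splenic C26 libraries held 11.6, 16.6, 16.5 and 84.1 CPM, against 7.11, 21.6, 10.4 and 9.19 CPM in sham libraries. One library, splenic C26 replicate 4, was far above the rest, and the other three lay within the sham range. In subcutaneous C26 the levels were 34.6, 22.7, 9.11 and 18.4 CPM, against 25.7, 23.3, 11.8 and 10.2 CPM in control, and these groups overlapped. The log2 fold change was 1.41 ± 0.60 for splenic C26 against sham (adjusted p = 0.0609) and 0.25 ± 0.59 for subcutaneous C26 against control (adjusted p = 0.741). Leaving out splenic C26 replicate 4 brought the splenic value down to 0.30 (adjusted p = 0.615). Leaving out sham replicate 2 gave 1.87 (adjusted p = 0.0329), and omitting splenic C26 replicate 1, 2 or 3 gave 1.70, 1.63 and 1.63, with adjusted p of 0.0266, 0.0464 and 0.0491. The call in the splenic group therefore depends on single libraries.

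In each of the 4 groups, the library with the highest Hsd11b1 was also the one with the highest sum of 10 adipocyte markers, all measured. These were splenic C26 replicate 4, with 84.1 CPM of Hsd11b1 beside 3310 CPM of markers, and sham replicate 2, with 21.6 beside 4479 CPM. In subcutaneous C26 replicate 1 the values were 34.6 and 3235 CPM, and in control replicate 1 they were 25.7 and 3212 CPM. The summed adipocyte markers ranged over 1805 to 3310 CPM in splenic C26 and 1229 to 4479 CPM in sham, and over 2157 to 3235 CPM in subcutaneous C26 and 1268 to 3212 CPM in control, with none at 0. Gene by gene, 1 adipocyte marker was higher and 2 lower in splenic C26, and 2 were higher and 1 lower in subcutaneous C26. Other sums tracked Hsd11b1 too. Over the 16 libraries, as deviations from group means, Pearson's r was 0.73 with adipocyte markers. It was -0.85 with pericyte and smooth muscle markers and -0.70 with muscle fibre markers. The part of fat RNA in the Hsd11b1 values was not tested. As in any bulk sample, fewer cells of a type and less RNA per cell cannot be told apart.

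Fkbp5, a cochaperone that binds the receptor complex and lowers its affinity for hormone (chr17:28399094-28517527, minus strand), had the greatest fold change of the 8 genes. Splenic C26 libraries held 216, 482, 790.4 and 772 CPM, against 49.6, 32.9, 25.2 and 45.7 CPM in sham. Subcutaneous C26 libraries held 478, 483, 273 and 444 CPM, against 41.1, 109, 49.9 and 33.6 CPM in control. Every tumour library exceeded every tumour-free one, and the 2 lowest tumour libraries were splenic C26 replicate 1 and subcutaneous C26 replicate 3. The fold change was 14.7 in splenic C26 against sham (log2 3.88 ± 0.45, adjusted p = 5.38e-05) and 7.19 in subcutaneous C26 against control (log2 2.85 ± 0.43, adjusted p = 0.000226). The difference between these effects was 1.04 on the log2 scale with a 95% interval of -0.19 to 2.26 (adjusted p = 0.853); that interval holds 0 and also a difference of over 2 log2 units.

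Tsc22d3, which encodes the anti-inflammatory glucocorticoid-induced leucine zipper protein GILZ (chrX:140539528-140600659, minus strand), also rose in both tumour groups. Its level was 315, 437, 485 and 326 CPM in splenic C26, against 220.1, 176, 158 and 209 CPM in sham. In subcutaneous C26 it was 460.1, 478, 308 and 513 CPM, against 146, 265, 157 and 149 CPM in control, where replicate 2 was the high library. The groups did not overlap in either comparison. Log2 fold changes were 1.03 ± 0.23 for splenic C26 against sham (adjusted p = 0.00189) and 1.30 ± 0.23 for subcutaneous C26 against control (adjusted p = 0.000489), and their difference was -0.26 with an interval of -0.93 to 0.41 (adjusted p = 0.963). The half-site printed above lies in the window of 1 of its 3 annotated starts.

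Zbtb16, the zinc-finger transcription factor also called PLZF (chr9:48654297-48836222, minus strand), had the smallest p among the 8 genes in both comparisons. Splenic C26 libraries held 236, 350.4, 265 and 296 CPM, against 53.1, 53.7, 59.5 and 65.3 CPM in sham. Subcutaneous C26 libraries held 344, 341, 218 and 382 CPM, against 68.8, 90.2, 73.2 and 62.3 CPM in control. Tumour and tumour-free libraries were far apart, and the spread within groups was small beside the gap. The fold change was 4.95 in splenic C26 against sham (log2 2.31 ± 0.19, adjusted p = 4.64e-06) and 4.36 in subcutaneous C26 against control (log2 2.126 ± 0.18, adjusted p = 7.06e-06). Their difference was 0.18, with an interval of -0.35 to 0.72 (adjusted p = 0.971).

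Klf15, a Krüppel-like factor that activates enzymes of branched-chain amino acid breakdown (chr6:90462576-90475238, plus strand), rose in both tumour groups. Its level was 112, 192, 206 and 193 CPM in splenic C26, against 50.1, 45.4, 30.0 and 26.9 CPM in sham. In subcutaneous C26 it was 202, 218, 94.4 and 255 CPM, against 44.2, 55.4, 42.9 and 25.1 CPM in control. The lowest tumour libraries were again splenic C26 replicate 1 and subcutaneous C26 replicate 3, and both still lay above all tumour-free libraries. Log2 fold changes were 2.21 ± 0.32 for splenic C26 against sham (adjusted p = 0.000170) and 2.199 ± 0.32 for subcutaneous C26 against control (adjusted p = 0.000177). The difference was 0.01 with an interval of -0.92 to 0.93 (adjusted p = 0.999), and its sign changed with the libraries left out.

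Klf9, a related Krüppel-like factor that represses transcription at many promoters (chr19:23141226-23168134, plus strand), showed the smallest rise of the 5. Splenic C26 libraries held 377, 307, 479 and 451 CPM, against 244, 193, 202 and 192 CPM in sham. Subcutaneous C26 libraries held 369.7, 367, 296 and 421 CPM, against 220.1, 236, 235 and 190.3 CPM in control. Neither pair of groups overlapped. Log2 fold changes were 0.96 ± 0.16 for splenic C26 against sham (adjusted p = 0.000357) and 0.72 ± 0.16 for subcutaneous C26 against control (adjusted p = 0.00209), with a difference of 0.23 and an interval of -0.24 to 0.71 (adjusted p = 0.940).

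Sgk1, the serum- and glucocorticoid-regulated kinase, which phosphorylates NEDD4L and NDRG1 (chr10:21882184-21999903, plus strand), did not pass the test in either comparison; 1 of its 6 windows is the one with the whole receptor element. Splenic C26 libraries held 199.6, 224, 444 and 502 CPM, against 284, 209.7, 205 and 154 CPM in sham. Replicates 3 and 4 lay above every sham library and replicates 1 and 2 lay among them. Subcutaneous C26 libraries held 276, 290.5, 97.0 and 299.9 CPM, against 169.9, 257, 239 and 183 CPM in control. Replicate 3 was the lowest library of all 16 for Sgk1, and the other three exceeded every control library.

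Log2 fold changes of Sgk1 were 0.68 ± 0.35 for splenic C26 against sham (adjusted p = 0.112) and 0.18 ± 0.35 for subcutaneous C26 against control (adjusted p = 0.684). With both libraries that stood apart removed, they were 0.87 in splenic C26 (adjusted p = 0.00738) and 0.44 in subcutaneous C26 (adjusted p = 0.138), so that the call in splenic C26 depends on them. Leaving out only splenic C26 replicate 1 gave 0.88 in splenic C26 against sham (adjusted p = 0.0436), and leaving out only subcutaneous C26 replicate 3 gave 0.68 there (adjusted p = 0.0467). With both libraries removed, the count of called genes among the 8 was 8 in splenic C26 against sham, beside 65.3% of all genes, and 5 in subcutaneous C26 against control, beside 62.6%.

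**Figure D2:**
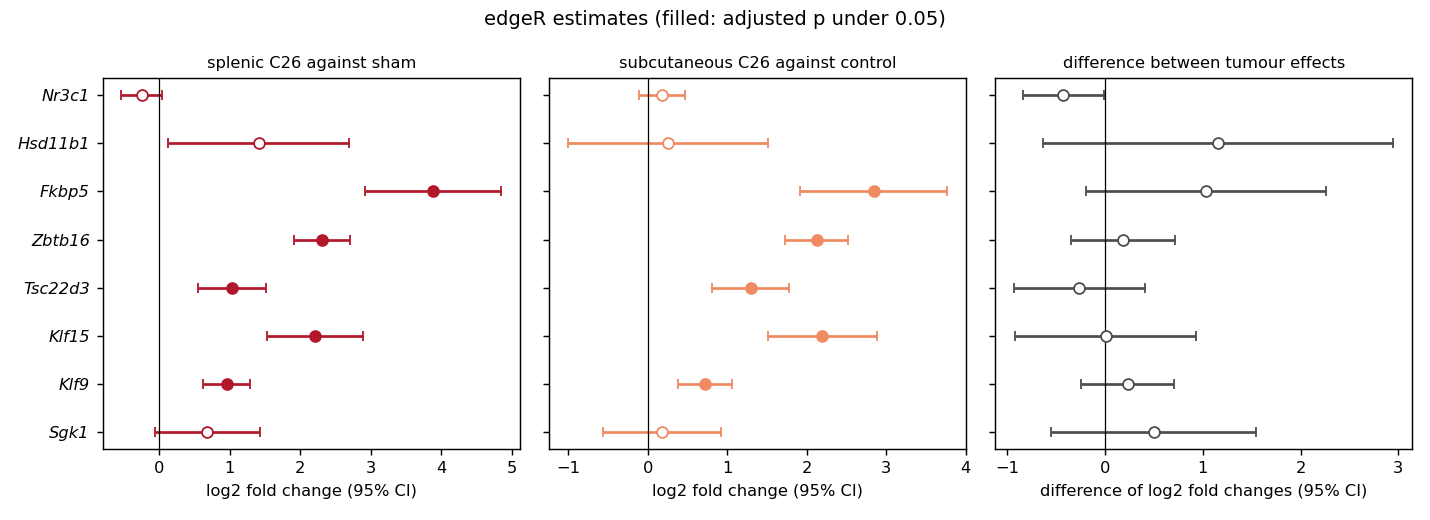
Log2 fold change of each gene with its 95% confidence interval (horizontal axes; zero marked by a vertical line) in splenic C26 against sham, in subcutaneous C26 against control, and as the difference between these effects; filled points have an adjusted p under 0.05. Fkbp5 has the highest estimate in both comparisons (3.88 in splenic C26 and 2.85 in subcutaneous C26), and 0 of the 8 differences are filled.

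The 2 tumour libraries that stood apart on the leading principal component stood apart by different amounts from gene to gene here. Zbtb16 in splenic C26 replicate 1 was 2.03 log2 units above the sham mean, against 2.199 to 2.60 in the other splenic C26 libraries. Fkbp5 in that library was 2.54 units above the sham mean, against 3.70 to 4.41 in the others, and Sgk1 was at -0.06. Subcutaneous C26 replicate 3 was 1.58 units above the control mean for Zbtb16 and 2.38 for Fkbp5, but -1.11 for Sgk1 and 0.47 for Nr3c1. The 5 genes that rose were above the tumour-free mean in each of the 8 tumour libraries, including both that stood apart. How many of all genes were so was not counted.

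**Figure D3:**
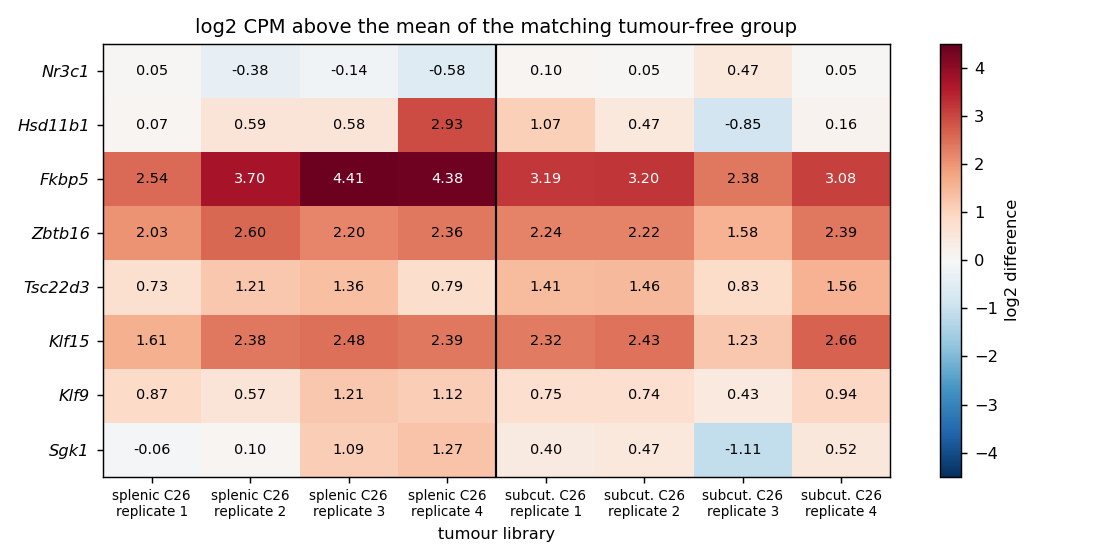
Log2 CPM of each gene (rows) in each tumour library (columns) minus the mean of its tumour-free group, sham for splenic C26 and control for subcutaneous C26; the colour scale gives the log2 difference, red above and blue below. Fkbp5, Zbtb16 and Klf15 are red in all 8 columns, while Sgk1 is at -1.11 in subcutaneous C26 replicate 3 and at 1.27 in splenic C26 replicate 4.

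Levels of different genes were compared per kilobase of merged exons. In splenic C26, Tsc22d3 was highest with 90.0 CPM per kb, followed by Klf9 with 83.8 and Sgk1 with 69.8. Hsd11b1 was lowest with 7.58, and its SD of 8.16 exceeded that mean. In sham, Tsc22d3, Sgk1 and Klf9 lay close together at 43.945, 43.478 and 43.191 CPM per kb, with SDs of 6.62, 10.9 and 5.15, so that their order is within the spread. Subcutaneous C26 also had Tsc22d3 on top with 101 CPM per kb, while in control Klf9 with 45.8, Sgk1 with 43.301 and Tsc22d3 with 41.3 lay within their SDs of 4.44, 8.65 and 13.2. By the length implied by the deposited log2 values, Tsc22d3 and Klf9 were level in control, at 67.2 and 67.1 CPM per kb. The position of Fkbp5 depends on the length used: in splenic C26 it was 59.7 CPM per kb of merged exons, the fifth level, but 145 CPM per kb of the length implied by the deposited log2 values, the second. Klf9 with 123 and Sgk1 with 81.8 CPM per kb then came after Fkbp5. The lowest place in splenic C26 changed too, with Nr3c1 at 19.2 and Hsd11b1 at 22.2 CPM per kb of implied length.

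The rest of the pathway was followed in lists chosen by known role, but with earlier results of these data known. Their counts are therefore a description and not an independent test. Beside the counts of this list and those below stand all genes, of which 28.1% were higher and 23.9% lower in splenic C26. In subcutaneous C26, 27% were higher and 23.1% lower. Counts near these shares are not particular to a list. Of 25 other glucocorticoid-induced genes, 21 rose and 0 fell in splenic C26 against sham, with a median log2 fold change of 2.52, and 19 rose and 0 fell in subcutaneous C26 against control, with a median of 2.09. Trim63 and Fbxo32, which encode the muscle ubiquitin ligases MuRF1 and atrogin-1, had the smallest p. Trim63 averaged 5639 ± 2685 CPM in splenic C26 and 226 ± 16.3 in sham, a log2 fold change of 4.64 ± 0.40, and that in subcutaneous C26 against control was 4.33 ± 0.40. Fbxo32 rose by 3.81 ± 0.30 in splenic C26 and 3.80 ± 0.30 in subcutaneous C26. The genes that did not pass in either comparison were Dusp1, a phosphatase of MAP kinases (-0.14 in splenic C26 and -0.48 in subcutaneous C26), Cited2 (-0.56 in splenic C26 and -0.72 in subcutaneous C26), Angptl4 (1.25 in splenic C26 and 0.83 in subcutaneous C26) and Mstn, the growth inhibitor myostatin (0.44 in splenic C26 and 0.60 in subcutaneous C26). In subcutaneous C26, Pik3r1 (0.94 ± 0.42) and Nfkbia (0.59 ± 0.36) did not pass either. Without the 2 libraries that stood apart, 21 rose and 1 fell in splenic C26, and 20 rose and 1 fell in subcutaneous C26. The gene that then fell was Cited2, by 1.11 in splenic C26 (adjusted p = 0.000611) and 1.20 in subcutaneous C26 (adjusted p = 0.000328), while Nfkbia passed in subcutaneous C26 at 0.87 (adjusted p = 0.0101). These last 6 genes were named after their values were seen.

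Among 12 chaperones and partners of the receptor, 3 rose and 0 fell in splenic C26 (median 0.24), and 6 rose and 0 fell in subcutaneous C26 (median 0.22). The shares of all genes called higher were 28.1% in splenic C26 and 27% in subcutaneous C26. Hsp90ab1, an HSP90 subunit, rose by 1.33 ± 0.26 in splenic C26 and 1.45 ± 0.26 in subcutaneous C26. Ptges3, the p23 cochaperone that completes the hormone-binding complex, rose by 1.30 ± 0.21 in splenic C26 and 1.42 ± 0.21 in subcutaneous C26. Fkbp4, which competes with Fkbp5 for HSP90, was at -0.31 ± 0.19 in splenic C26 and -0.10 ± 0.19 in subcutaneous C26 and did not pass; it was named after its values were seen. Under upper-quartile scaling 2 rose and 2 fell in splenic C26, and 3 rose and 2 fell in subcutaneous C26. Among all genes that scaling called 2749 higher and 4384 lower in splenic C26, and 2412 higher and 4509 lower in subcutaneous C26. Removal of the 2 libraries that stood apart gave 4 higher and 0 lower in splenic C26, and 6 higher and 1 lower in subcutaneous C26. Among all genes that fit called 4329 higher and 4366 lower in splenic C26, and 4134 higher and 4198 lower in subcutaneous C26.

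Of 13 measured genes out of 14 listed as coregulators, 8 rose and 2 fell in splenic C26 (median 0.42), and 9 rose and 0 fell in subcutaneous C26 (median 0.44). The list of 14 includes Grip1, which encodes a glutamate receptor-interacting protein and not the coactivator of that alias, Ncoa2. Rela, the NF-kappaB subunit that interferes with the receptor, rose by 1.61 ± 0.24 in splenic C26 and 1.30 ± 0.24 in subcutaneous C26. The acetyltransferase gene Crebbp rose by 0.52 ± 0.13 in splenic C26, and Smarca4, which encodes a chromatin-remodelling ATPase, rose by 0.60 ± 0.14 in subcutaneous C26. Hexim1, an inhibitor of transcription elongation, fell by 1.12 in splenic C26, as did the coactivator Ncoa1 by 0.40. The Ncoa1 call was lost without sham replicate 4, splenic C26 replicate 2 or splenic C26 replicate 4 (adjusted p of 0.0514 to 0.0608). Upper-quartile scaling left 3 higher and 3 lower in splenic C26, and 5 higher and 2 lower in subcutaneous C26. With the 2 libraries that stood apart removed, there were 8 higher and 3 lower in splenic C26, and 9 higher and 1 lower in subcutaneous C26, where Hexim1 then fell by 1.02 (adjusted p = 0.000109).

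Steroid access and sister receptors, 8 measured of 12, split evenly in splenic C26, with 3 higher and 3 lower (median -0.20), and gave 3 higher and 2 lower in subcutaneous C26 (median -0.42). H6pd, which supplies the cofactor of the Hsd11b1 enzyme, rose by 1.03 ± 0.14 in splenic C26 and 1.005 ± 0.14 in subcutaneous C26. Abcb1b, a drug and steroid exporter, rose by 2.19 ± 0.27 in splenic C26 and 2.08 ± 0.27 in subcutaneous C26. Nr3c2, the mineralocorticoid receptor, fell by 1.17 in splenic C26 to 6.38 ± 4.29 CPM, against 14.4 ± 1.65 CPM in sham. Akr1c14, a hydroxysteroid dehydrogenase, fell by 1.60 in splenic C26 and 1.87 in subcutaneous C26, and Abcb1a fell by 0.71 in subcutaneous C26. The Nr3c2 call was lost without splenic C26 replicate 4 (adjusted p = 0.0501), and the Abcb1a call on omitting subcutaneous C26 replicates 2 or 3, or any control library but replicate 1, one at a time (adjusted p of 0.0604 to 0.0847). The median in splenic C26 was -0.49 without the 2 libraries that stood apart, and in that fit 3 rose and 4 fell in subcutaneous C26, with Nr3c2 then lower by 1.08 (adjusted p = 0.00141).

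Genes around the SGK kinases, 9 measured of 10, gave 3 higher and 2 lower in splenic C26 (median 0.17) and 4 higher and 1 lower in subcutaneous C26 (median 0.04). Pdpk1, the kinase that activates SGK1, rose by 1.31 ± 0.27 in splenic C26, and Nedd4l, the ubiquitin ligase that SGK1 inhibits, rose by 0.99 ± 0.21 in splenic C26 and 1.23 ± 0.21 in subcutaneous C26. Gsk3b rose by 1.25 ± 0.22 in subcutaneous C26, while Mlst8, an mTOR complex subunit, fell by 0.57 in splenic C26 and 0.62 in subcutaneous C26. Wnk1 fell by 0.42 in splenic C26, with an adjusted p of 0.0495, and that call was lost on leaving out any of 9 single libraries (adjusted p of 0.0524 to 0.117). Under upper-quartile scaling the list's median was -0.04 in splenic C26 and -0.20 in subcutaneous C26. Of 8 measured genes of amino acid breakdown linked to Klf15, out of 10 listed, 4 rose and 0 fell in splenic C26 (median 0.64), and 3 rose and 0 fell in subcutaneous C26 (median 0.36). Without the 2 libraries that stood apart, 6 rose and 0 fell in splenic C26, and 3 rose and 2 fell in subcutaneous C26 (median 0.23). Upper-quartile scaling gave 2 higher and 1 lower in subcutaneous C26, with a median of 0.12. Prodh, proline dehydrogenase, rose by 2.136 ± 0.15 in splenic C26 and 1.68 ± 0.15 in subcutaneous C26, Bckdha of the branched-chain dehydrogenase by 0.68 ± 0.12 in splenic C26, and Bcat2, the mitochondrial branched-chain aminotransferase, by 0.76 ± 0.16 in subcutaneous C26.

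**Figure D4:**
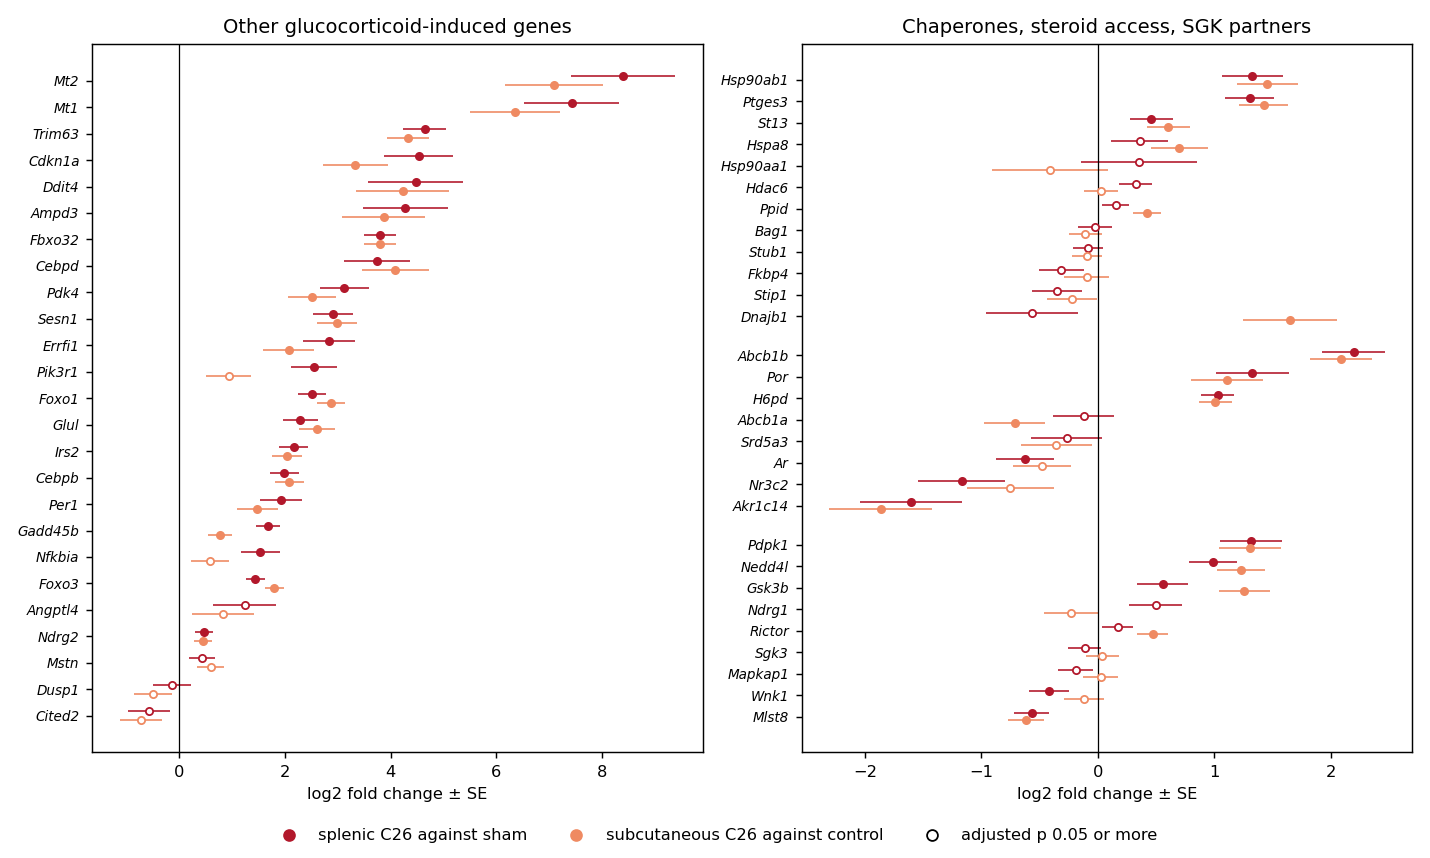
Log2 fold change ± SE (horizontal axes) of the other glucocorticoid-induced genes (left) and of the chaperones, steroid access genes and SGK partners (right, from top to bottom) in splenic C26 against sham and subcutaneous C26 against control; open points have an adjusted p of 0.05 or more. On the left 21 of 25 genes in splenic C26 and 19 in subcutaneous C26 are filled, all to the right of zero, and on the right the groups of genes point both ways.

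For each gene the most similar patterns over the 16 libraries were sought by Pearson's r of log2 CPM among 11523 genes. Tumour and tumour-free libraries form separate clusters, so the values describe likeness and carry no test. Fkbp5 was closest to Mt2, a metallothionein (r = 0.989), and Socs3, a cytokine signalling inhibitor (0.978), and Zbtb16 to Fbxo32 (0.994) and Ube4a (0.988). Klf15 was closest to Mt2 (0.979) and Figf (0.979), Klf9 to Il4ra (0.972) and Rsbn1 (0.970), and Tsc22d3 to Adarb1 (0.957) and Foxo3 (0.953). The genes that did not pass had weaker best matches: Hsd11b1 with Aldh1l1 (0.923) and Tspan4 (0.892), Sgk1 with Zfp26 (0.907) and Synj1 (0.899), and Nr3c1 with Nol10 (0.847) and Casr (0.827).

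Markers of other cells also differed between the groups, in part through single libraries. The sum of 11 neutrophil markers was 22.0 to 2498 CPM in splenic C26 and 2.41 to 2.98 CPM in sham, and 24.7 to 446 CPM in subcutaneous C26 and 2.29 to 52.3 CPM in control, with Camp, Ltf and Mpo at 0 in all 4 sham libraries. Its lowest tumour libraries were splenic C26 replicate 1 and subcutaneous C26 replicate 3. Gene by gene, 10 of the 11 were higher and 0 lower in splenic C26 (median log2 fold change 5.67). In subcutaneous C26 only 1 was higher, 0 were lower and 10 were not called (median 0.49). The sum of 10 fibro-adipogenic progenitor markers was 531 to 1561 CPM in splenic C26 and 1827 to 2245 CPM in sham, and 573 to 1056 CPM in subcutaneous C26 and 1414 to 2643 CPM in control. Hepatocyte markers, 10 of 10 measured, summed to 1.88 to 145 CPM in splenic C26 and 1.57 to 5.42 CPM in sham, and to 1.99 to 3.85 CPM in subcutaneous C26 and 34.0 to 256 CPM in control. They did not follow the tumour: the splenic C26 maximum was replicate 1 alone, with the other three at 1.88 to 3.18 CPM, and every control library lay above every subcutaneous C26 library. Schwann cell markers, 7 measured of 8, summed to 30.5 to 60.2 CPM in splenic C26 and 67.4 to 81.4 CPM in sham, and to 31.3 to 51.3 CPM in subcutaneous C26 and 58.5 to 95.8 CPM in control, with 3 genes lower in splenic C26 and 5 in subcutaneous C26. Of 10 endothelial markers, 7 were higher and 1 lower in splenic C26, and 1 was higher and 4 lower in subcutaneous C26. Their sums were 308 to 543 CPM in splenic C26 and 313 to 382 CPM in sham, and 243 to 316 CPM in subcutaneous C26 and 375 to 439 CPM in control. Of 9 pericyte and smooth muscle markers, 1 was higher and 2 lower in splenic C26, and 1 was higher and 7 lower in subcutaneous C26. Their sums were 514 to 662 CPM in splenic C26 and 603 to 658 CPM in sham, and 597 to 642 CPM in subcutaneous C26 and 628 to 674 CPM in control. Of 8 T and B cell markers 0 were measured. The part of these cells in the changes of the 8 genes was not tested. The 5 rises were also called without 4 libraries removed together, splenic C26 replicate 1 (145 CPM of hepatocyte markers), splenic C26 replicate 3 (2498 CPM of neutrophil markers), control replicate 1 (52.3 CPM of neutrophil markers) and subcutaneous C26 replicate 4 (131 CPM of red blood cell markers), with Fkbp5 at 4.04 (adjusted p = 7.42e-05) in splenic C26 against sham and 2.66 (adjusted p = 0.00124) in subcutaneous C26 against control. That removal left in other libraries with such transcripts, among them control replicate 4 (256 CPM of hepatocyte markers) and splenic C26 replicate 4 (639 CPM of neutrophil markers). The 5 rises were called as well without the 3 libraries of highest hepatocyte sum, splenic C26 replicate 1 and control replicates 2 and 4. Fkbp5 was then at 4.15 (adjusted p = 2.73e-06) in splenic C26 against sham and 3.21 (adjusted p = 0.000210) in subcutaneous C26 against control.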

How the data were processed

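Paired-end reads of quadriceps RNA from 16 samples were counted; extraction and sequencing were carried out in a single round, per the labels' protocols. The deposited counts are raw read counts per gene symbol, made by the authors with STAR and featureCounts, per the labels. The submitters' processing notes list FastQC, STAR, edgeR and build mm10. Their versions and the annotation were not given in the sources used here. Whether counting used strand is also not stated, which leaves overlapping and antisense genes mixed, and values of the near-identical Mt1 and Mt2 are uncertain. A deposited table of log2 values equalled log2 CPM up to 1 constant per gene and 1 per library (residual SD 0.00316 over 9543 genes); it served as an alternative and gave an implied length per gene. Left out were 4013 lines without a gene (23.2% of lines).

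The 8 genes and the lists were chosen with earlier results of these data known. Groups follow the tumour label, and replicate numbers only name libraries. One edgeR model (version 4.0.16, R 4.3.3) with TMM scaling, a robust quasi-likelihood fit and a mean for each group was fitted to all 16 libraries. P-values were adjusted by Benjamini-Hochberg over 13320 genes, with a threshold of 0.05, and intervals are 95%. The procedure was also run on simulated counts in which only a small part of the genes was changed, in a single group. In these data 52% of genes were called in splenic C26 and 50% in subcutaneous C26. The simulation therefore does not check the fit under changes this broad. Named genes are the 8, the 2 genes with the smallest p of each list per comparison, up to 2 that passed against most calls of their list, and the 2 most alike per gene; others are marked as named after their values were seen. Alternatives were RLE and upper-quartile scaling, DESeq2 1.42.0, limma 3.58.1 (voom, and trend on the deposited log2 values), 2 count filters, a fit without the 10 genes of highest count, fits of the compared groups only, a threshold of 0.01 and omission of each library. Promoter windows came from RefSeq, and gene positions and exon lengths from GENCODE M21. Total counts of 25.9 to 34.9 M per library gave between 1593 and 56789 reads per group for each of the 8 genes.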

Additional observations from a re-analysis of the deposited data

Results flagged for a closer look

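Of 32 groups of 4 libraries, 1 for each gene and group, 5 held a library far from the rest by Dixon's criterion at the 95% level. Chance flags about 1 in 20 groups, or 5%. The criterion was applied to log2 CPM, while the values here are printed in CPM, and the flags can differ between these scales. Hsd11b1 in splenic C26 replicate 4, at 84.1 CPM, was not flagged on the log2 scale. Subcutaneous C26 replicate 3 was set apart for 3 genes, high for Nr3c1 with 171 CPM and low for Fkbp5 with 273 CPM and Sgk1 with 97.0 CPM. It is also 1 of the 2 tumour libraries that stood apart on the leading principal component. Splenic C26 replicate 1, the other of them, was low for Klf15 with 112 CPM. Control replicate 2 was high for Tsc22d3 with 265 CPM.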

How the results depend on the processing

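The rises of Fkbp5, Zbtb16, Tsc22d3, Klf15 and Klf9 kept their direction and call in both tumour comparisons under all 29 alternatives (290 of 290 values), with adjusted p of at most 0.0187. Not all of these values are separate challenges. The count filter of edgeR removed 0 genes and so repeated the main fit, and the stricter threshold used the values of the main fit. Omitting a library outside the compared groups acts on a comparison only through the shared fit. The same limits apply to the other counts over settings below. No paired analysis was possible because replicate numbers were given in accession order and pair nothing. Removal of both tumour libraries that stood apart, of 4 libraries with transcripts of other tissues, and of the 3 of highest hepatocyte sum, was chosen after seeing the data. For Nr3c1, splenic C26 against sham was -0.44 with upper-quartile scaling, -0.36 without the 2 libraries, -0.36 without the 3 and -0.47 without the 4, all past the threshold, and -0.35 to -0.14 when 1 library was left out; its subcutaneous value was -0.057 with upper-quartile scaling. Hsd11b1 in splenic C26 passed with DESeq2 (1.44), without the 2 or the 3 libraries (1.69) and without the 4 (2.06), and ranged over 0.30 to 1.87 with 1 library left out; in subcutaneous C26 it was -0.0019 with upper-quartile scaling and -0.10 to 0.50 with 1 left out. Sgk1 in splenic C26 passed without the 2 libraries (0.87) and ranged over 0.44 to 0.88; in subcutaneous C26 it was -0.069 with upper-quartile scaling and -0.041 without the 4. The Klf15 difference ranged over -0.22 to 0.20, and was -0.053 without the 2 libraries. The count of the 8 genes called in splenic C26 was 8 without the 2 libraries and 5 to 8 with 1 left out.

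Over all genes, a threshold of 0.01 called 4408 in place of 6931 in splenic C26 against sham and 4175 in place of 6665 in subcutaneous C26 against control. In the difference between tumour effects edgeR called 0 (851 at an unadjusted p under 0.05), DESeq2 86, the fit without the 2 libraries 257 and that without the 3 libraries 1, and fits with 1 left out 0 to 66. For splenic C26 against subcutaneous C26 the main count was 0 (1358 unadjusted), with 163 by DESeq2, 958 without the 2 libraries, 47 without the 3, 2 without the 4 and 0 to 307 with 1 left out. For sham against control it was 1, with 58 by DESeq2, 7 by limma-trend, 0 with only the compared groups or a threshold of 0.01, 46 without the 2 libraries, 9 without the 3, 47 without the 4 and 0 to 49 with 1 left out. Upper-quartile scaling moved the median of all genes to -0.24 in splenic C26 and -0.26 in subcutaneous C26, and the share of calls that were higher to 38.5% in splenic C26 and 34.9% in subcutaneous C26, in place of 54.0% in splenic C26 and 53.9% in subcutaneous C26. Of 1421 values of the other named genes, 26 lost their call, in 4 results (Abcb1a, Ncoa1, Nr3c2 and Wnk1), and 0 changed direction. The cause of these changes was not tested. The spread between libraries limits Hsd11b1, whose interval for the difference between tumour effects ran from -0.63 to 2.95.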

Other observations

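Clock genes, several of which respond to glucocorticoids, moved in both directions. Of 17 measured, 6 rose and 5 fell in splenic C26 against sham (median 0.29), and 6 rose and 4 fell in subcutaneous C26 against control (median 0.17), beside 28.1% and 23.9% of all genes in splenic C26 and 27% and 23.1% in subcutaneous C26. Nfil3, a repressor of D-box genes, rose by 2.81 ± 0.33 in splenic C26 and 2.45 ± 0.32 in subcutaneous C26. Dbp, an activator at the same sites, fell by 3.26 in splenic C26 to 11.2 ± 7.76 CPM, against 108 ± 12.7 CPM in sham, and by 4.14 in subcutaneous C26 to 6.86 ± 2.08 CPM, against 121 ± 27.1 CPM in control. Hlf, its relative, fell by 2.19 in splenic C26 and 2.00 in subcutaneous C26. Upper-quartile scaling gave a median of -0.06 and 7 lower in subcutaneous C26. Removing the 2 libraries that stood apart gave 7 higher and 6 lower in splenic C26, and 7 higher and 4 lower in subcutaneous C26 (median -0.05). The hour at which tissue was taken is not given in the labels.

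Relatives of the 8 genes were counted against the same shares of all genes. Of 11 measured Klf genes out of 14, 2 rose and 0 fell in splenic C26 (median -0.02), and 4 rose and 0 fell in subcutaneous C26 (median 0.43). Without the 2 libraries that stood apart, 2 rose and 3 fell in splenic C26, and 6 rose and 0 fell in subcutaneous C26 (median 0.54). Klf6 rose by 1.57 ± 0.34 in splenic C26 and 2.23 ± 0.34 in subcutaneous C26, and Klf10 by 1.57 ± 0.18 in splenic C26 and 1.32 ± 0.17 in subcutaneous C26. Of 13 measured Fkbp and Tsc22 genes out of 14, 3 rose and 6 fell in splenic C26 (median -0.37), and 3 rose and 4 fell in subcutaneous C26 (median -0.11). In subcutaneous C26 the number that fell was 6 without the 2 libraries, 7 with upper-quartile scaling and 2 without the 4 libraries removed together for transcripts of other tissues. Tsc22d1 rose by 1.20 ± 0.23 in splenic C26, Tsc22d2 by 0.59 ± 0.12 in subcutaneous C26, and Fkbp15 by 0.52 ± 0.12 in splenic C26 and 0.66 ± 0.12 in subcutaneous C26. Tsc22d4 fell by 0.99 in splenic C26 and Fkbp10, a collagen chaperone, by 1.29 in subcutaneous C26.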
